A study of Mus musculus with 6 samples.

Results

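Expression of 10 genes that write, erase or read chromatin marks and are known from stem cell self-renewal and clonal haematopoiesis was followed through 6 libraries of irradiated mouse marrow cells. The genes were picked by name, though with earlier results of these data known: Dnmt1, Dnmt3a, Dnmt3b, Tet1, Tet2, Tet3, Asxl1, Ezh2, Kmt2a and Bmi1. All 10 were found among the 30733 gene symbols of the files, and 9 of them were among the 12110 genes tested, which had a mean of at least 1 FPKM (a level scaled to transcript length and library size). Tet1 lay below that minimum. The libraries came from bone marrow of wild-type mice given 5 Gy of total body irradiation, and the cells are labelled as haematopoietic stem cells (HSCs, the cells that renew blood). Cells sorted as high for MHC class II, the surface molecule that presents peptides to helper T cells, made the 3 MHCII-hi libraries, and cells low for it made the 3 MHCII-lo libraries. Both groups share the genotype and the irradiation, no unirradiated group was analysed here, and the labels give neither the time after irradiation nor the age of the mice, nor whether replicates were separate mice. The p-values therefore weigh changes only against library-to-library spread, which could be technical.

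DNA methylation is laid down at CpG sites by the DNMT enzymes, with Dnmt1 copying the pattern after replication and Dnmt3a and Dnmt3b writing it anew. TET enzymes oxidise the methyl group and so begin its removal. Polycomb complexes keep genes silent through marks on histones H3 and H2A, and the trithorax enzyme Kmt2a (MLL1) keeps genes such as the Hoxa cluster and Meis1 active. In blood, loss of Dnmt3a or Tet2 and truncation of Asxl1 are the best known lesions of clonal haematopoiesis, and Bmi1 is needed for adult HSCs to renew.

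The genes differ in the DNA before their start sites, which is shown for the tested genes with the largest change on the log2(FPKM + 1) scale (Kmt2a and Tet2), for a writer of new methylation (Dnmt3b) and for a gene that did not pass the test (Bmi1). Each line gives the 250 bases before the RefSeq start (GRCm38.p6), 5′ to 3′ on the gene's strand, with CpG sites, the sites that DNMT and TET enzymes act on, in capitals. The windows lie at chr9:44881290-44881539 (Kmt2a, minus strand), chr3:133544391-133544640 (Tet2, minus strand), chr2:153649199-153649448 (Dnmt3b, plus strand) and chr2:18676768-18677017 (Bmi1, plus strand). They share no base with an annotated exon, except 7 bases at the end of the Kmt2a window.
Kmt2a: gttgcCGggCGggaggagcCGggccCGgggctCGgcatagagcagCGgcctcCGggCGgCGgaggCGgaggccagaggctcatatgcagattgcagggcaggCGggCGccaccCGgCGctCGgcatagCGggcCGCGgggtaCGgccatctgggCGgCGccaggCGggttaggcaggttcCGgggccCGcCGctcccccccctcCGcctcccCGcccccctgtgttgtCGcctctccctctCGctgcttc
Tet2: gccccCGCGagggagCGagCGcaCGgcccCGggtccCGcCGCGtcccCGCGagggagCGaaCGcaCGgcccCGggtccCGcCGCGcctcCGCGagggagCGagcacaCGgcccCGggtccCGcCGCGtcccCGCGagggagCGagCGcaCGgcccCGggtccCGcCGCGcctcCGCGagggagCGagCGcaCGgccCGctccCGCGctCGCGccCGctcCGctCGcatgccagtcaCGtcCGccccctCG
Dnmt3b: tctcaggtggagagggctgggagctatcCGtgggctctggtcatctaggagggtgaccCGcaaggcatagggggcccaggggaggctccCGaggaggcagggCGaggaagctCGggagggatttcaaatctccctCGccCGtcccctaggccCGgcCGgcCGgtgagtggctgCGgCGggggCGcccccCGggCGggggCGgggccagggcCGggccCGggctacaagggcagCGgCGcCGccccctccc
Bmi1: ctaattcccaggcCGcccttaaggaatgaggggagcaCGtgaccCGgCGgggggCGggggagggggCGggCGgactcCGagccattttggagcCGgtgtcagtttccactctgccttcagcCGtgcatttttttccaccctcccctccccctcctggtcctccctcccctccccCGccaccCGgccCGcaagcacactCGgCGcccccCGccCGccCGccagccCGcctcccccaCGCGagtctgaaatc

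The Tet2 window held 51 CpG sites, the Kmt2a window 29 and the Dnmt3b and Bmi1 windows 21 each, against a median of 6 (quartiles 2 and 16) over 32851 RefSeq windows of the same length. Windows were found for all 10 genes, and 8 genes had a single one. Among those 8, the other CpG counts were 23 for Ezh2, 17 for Tet3, 15 for Tet1 and 11 for Asxl1. Dnmt1 and Dnmt3a had more than 1 RefSeq window and were left out of this count. A single window need not mean a single start: the GENCODE spans of Tet1, Tet2, Tet3 and Ezh2 begin upstream of their windows. On both strands, the SP/KLF motif GGGCGG, which is itself a stretch with a CpG, occurred 6 times in the Bmi1 window, 4 times in the Kmt2a window, 3 times in the Dnmt3b window and 1 time in the Tet2 window, and 32.7% of all windows held it. The NF-Y motif CCAAT was in none of the 4 windows printed and in 33.8% of all windows, and the window of Ezh2, not printed, held it 3 times. E2F motifs (TTTCGCGC, TTTGGCGC, TTTCCCGC or TTTGCCGC) were in none of the 8 windows and in 1.86% of all windows. These matches describe letters only, and no methylation or binding was measured here.

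Across the set, 6 of the 9 tested genes rose in MHCII-hi cells, 0 fell and 3 did not pass (limma, Benjamini-Hochberg adjusted p of 0.05 over all tested genes). The genes that rose were Kmt2a, Tet2, Asxl1, Tet3, Dnmt3b and Dnmt3a, and the 3 that did not pass were Dnmt1, Ezh2 and Bmi1. Over all tested genes, 58.6% were called, 25.5% as higher and 33.1% as lower. Separate ranges in the 2 groups were seen for 8 of the 9 genes, against 65.8% of all tested genes. The median change of the 9 genes was 0.24 on the log2(FPKM + 1) scale, on which the change of low genes is understated, and that of all tested genes was -0.04. All 9 tested genes had a mean above 1 FPKM in both groups, so none passed the minimum through its higher group alone. Bulk RNA cannot tell more cells with a transcript from more transcript per cell.

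**Figure D1:**
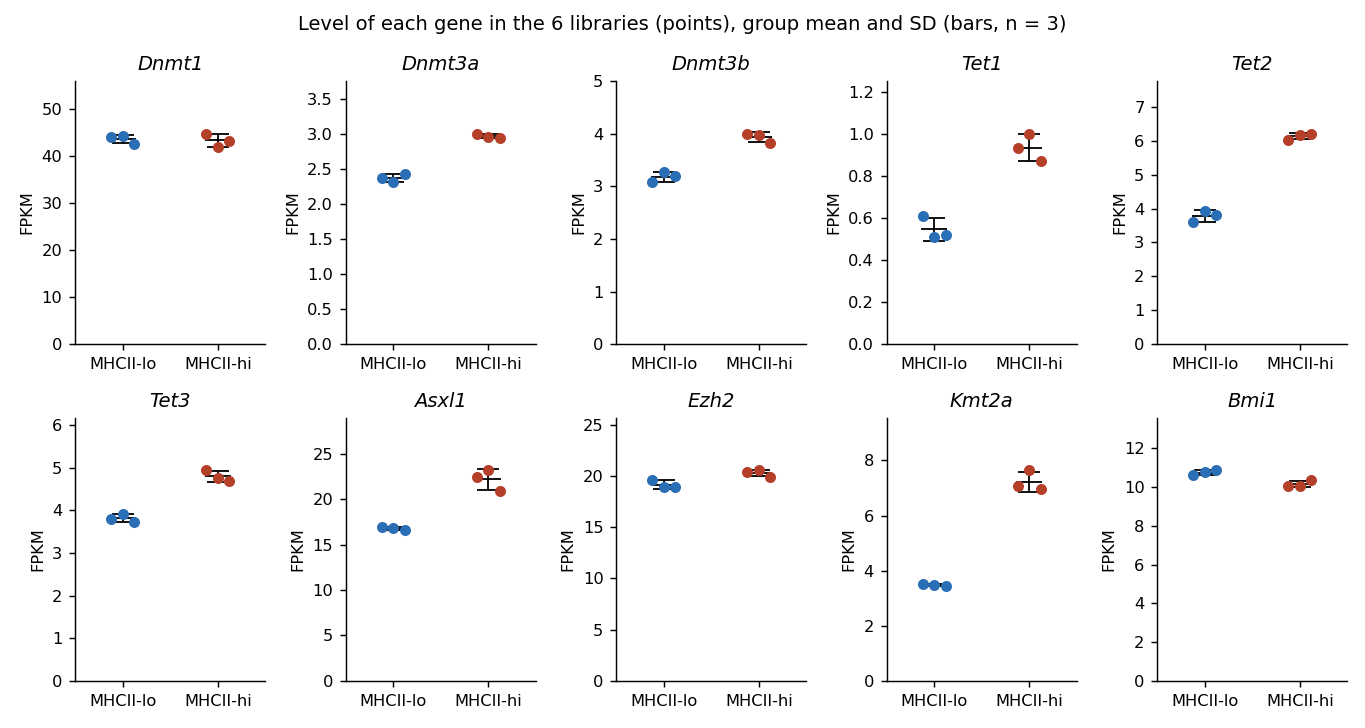
FPKM of each of the 10 genes in the 3 MHCII-lo and 3 MHCII-hi libraries (points), with the group mean and SD (bars); each panel has its own axis from 0. Relative to the panel's axis, the groups stand apart most for Kmt2a, Tet1 and Tet2, and the Dnmt1 points of both groups overlap.

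Libraries and markers set the frame for these values. An estimated 2.04e+07 to 3.24e+07 fragments lay behind each library, read from the smallest steps in the values, and replicates differed by a median squared difference of 2.66 to 3.03 times counting noise. By that estimate 193 to 466 fragments per library lay behind Tet1, the lowest member, and 6319 to 10691 behind Dnmt1, the highest. Of 12 HSC markers, 6 (Mecom, Procr, Slamf1, Fgd5, Hoxb5 and Ctnnal1) stayed below 1 FPKM in every library, and 5 of the 6 tested ones were higher in MHCII-hi. Markers of other cell types moved with the groups. All 10 plasma cell markers rose (summed level 1522 to 1535 FPKM in MHCII-hi, 80.1 to 83.4 in MHCII-lo), as did all 4 tested of 9 B cell markers (54.3 to 56.5 against 7.08 to 8.67 FPKM), 8 of 9 tested T and NK cell markers (219.7 to 225.5 against 164.7 to 174.5 FPKM), all 6 tested of 8 dendritic cell markers (85.0 to 93.6 against 45.2 to 45.9 FPKM) and 8 of 9 eosinophil, basophil and mast cell markers (7326 to 7463 against 2869 to 2894 FPKM). All 12 neutrophil markers fell (15548 to 15942 against 37739 to 38424 FPKM), as did all 6 granulocyte-monocyte progenitor markers (4205 to 4323 against 5994 to 6124 FPKM), 5 of 7 tested monocyte and macrophage markers (2250 to 2324 against 3333 to 3353 FPKM) and 6 of 8 erythroid markers (157 to 164 against 268 to 283 FPKM). No marker of these lists was at 0 in all 6 libraries. Their part in the results below was not tested.

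Scaling and gene length also moved with the groups. Immunoglobulin genes took 23.8% to 24% of the summed FPKM in MHCII-hi libraries and 0.497% to 0.506% in MHCII-lo libraries. When libraries were instead scaled to the FPKM total that leaves out those genes, this shifted the median change of all tested genes by 0.15, from -0.04 to 0.12. Under that scaling 58.1% of all tested genes were called, 40.9% higher and 17.2% lower, and all 9 tested genes of the set were called higher, 8 of them with a change above the new median and Bmi1 below it. Long transcripts were higher in MHCII-hi as a class: the median change was -0.20 in genes with 1 to 2 kb of exons, -0.11 with 2 to 4 kb, -0.01 with 4 to 8 kb, 0.06 with 8 to 12 kb and 0.16 over 12 kb, where 52.1% of 511 genes were called higher and 12.9% lower. Genes under 1 kb had a median of 0.02. Dnmt3a, Tet1, Tet2, Tet3 and Kmt2a all have over 12 kb of exons. With the length trend removed from each library, a treatment chosen after seeing the data, 4 genes of the set remained called (Kmt2a, Tet2, Asxl1 and Dnmt3b), and Dnmt3a and Tet3 did not pass. Of the 11875 genes with a length, 55.7% were called under that treatment, 27.6% higher and 28.1% lower.

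**Figure D2:**
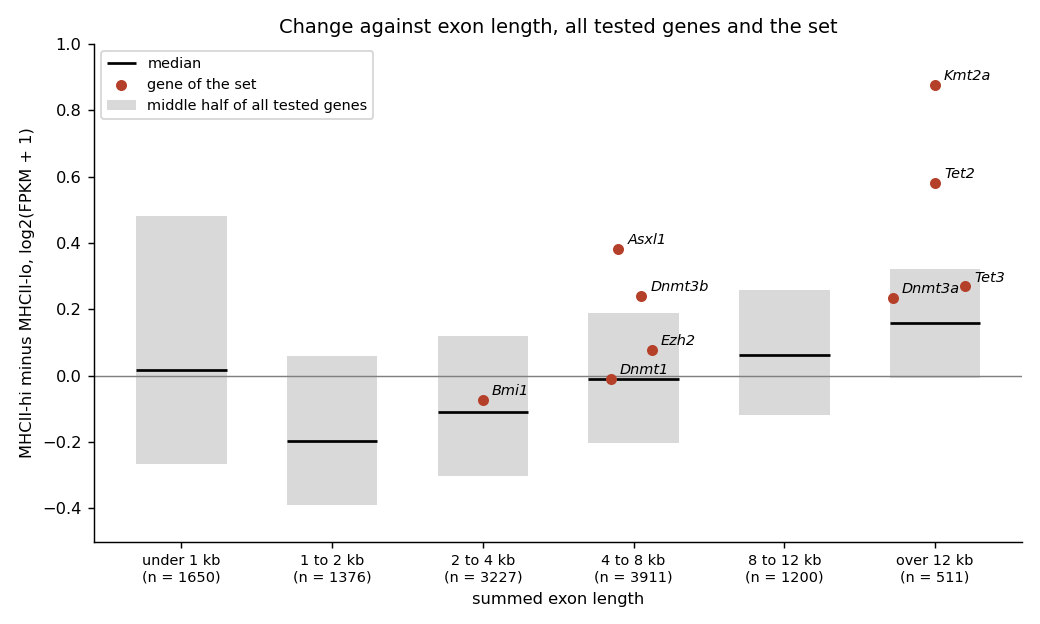
Change (MHCII-hi minus MHCII-lo, log2(FPKM + 1), vertical axis) against summed exon length in 6 classes (horizontal axis); grey bars span the middle quartiles of all tested genes, black lines are medians and red points are the 9 tested genes of the set. The class median climbs from -0.20 at 1 to 2 kb to 0.16 over 12 kb, and Kmt2a and Tet2 lie above the grey bar of their class while Dnmt3a and Tet3 lie within it.

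Among the DNA methyltransferases, the writers of new methylation were higher in MHCII-hi cells and the maintenance enzyme was not distinguishable. Dnmt3a (chromosome 12, 3806007 to 3914443, plus strand) had levels of 3.01, 2.96 and 2.95 FPKM in MHCII-hi cells and 2.38, 2.32 and 2.44 FPKM in MHCII-lo cells. Every MHCII-hi library was above every MHCII-lo library. The change was 0.23 on the log2 scale (SE 0.05, limma adjusted p = 0.00691). Its size was near that of its length class, in which 61.1% of genes changed by less, and the change became 0.07 (adjusted p = 0.302) with the length trend removed and 0.11 (adjusted p = 0.0985) under quantile normalization. Dnmt3b (chromosome 2, 153649450 to 153687730, plus strand), the close relative of Dnmt3a, stood at 4, 3.98 and 3.83 FPKM in MHCII-hi and at 3.08, 3.27 and 3.19 FPKM in MHCII-lo, again without overlap. It rose by 0.24 (SE 0.05, limma adjusted p = 0.00464), and by 0.26 (adjusted p = 0.00323) with the length trend removed.

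Dnmt1 (chromosome 9, 20907209 to 20959888, minus strand) was the most abundant of the 10 genes in both groups. It stood at 44.7, 42.0 and 43.2 FPKM in MHCII-hi and at 44.0, 44.3 and 42.6 FPKM in MHCII-lo. These ranges overlapped, and the change of -0.01 (95% interval -0.09 to 0.07, limma adjusted p = 0.786) did not pass as deposited, whereas it turned to 0.17 (adjusted p = 0.00393) when scaled without immunoglobulin genes. The fractions among the 3 enzymes were compared within each library, where scaling cancels but a trend with length does not. Exons sum to 7377 bases in Dnmt1, 5106 in Dnmt3b and 16642 in Dnmt3a. With the length trend removed, the 3 genes changed by -0.05, 0.26 and 0.07, so the ratios below hold a part that follows length. The ratio of Dnmt1 to Dnmt3a came to 14.9, 14.2 and 14.6 in MHCII-hi against 18.5, 19.1 and 17.5 in MHCII-lo, with no overlap (log2 difference -0.33, two-sided exact permutation p = 0.1, adjusted 0.138 over 11 ratios). With 3 libraries a group 0.1 is the smallest p that this test can give, so none of the 11 ratios could pass. The ratio of Dnmt3b to Dnmt3a was 1.32 ± 0.0235 in MHCII-hi against 1.34 ± 0.0631 in MHCII-lo (SD, n = 3), which overlapped (exact permutation p = 0.9).

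All 3 TET dioxygenases were higher in every MHCII-hi library than in any MHCII-lo library. Tet2 (chromosome 3, 133463679 to 133545139, minus strand), the family member most often lost in clonal haematopoiesis, stood at 6.03, 6.18 and 6.21 FPKM in MHCII-hi and at 3.59, 3.94 and 3.80 FPKM in MHCII-lo. The groups stood far apart relative to their spread. Tet2 rose by 0.58 (SE 0.05, limma adjusted p = 6.42e-05), a 1.63-fold ratio of means, and 93.9% of genes with over 12 kb of exons changed by less. It rose by 0.41 (adjusted p = 0.000365) with the length trend removed. Tet3 (chromosome 6, 83362373 to 83459084, minus strand) stood at 4.94, 4.76 and 4.70 FPKM in MHCII-hi and at 3.81, 3.91 and 3.72 FPKM in MHCII-lo. It rose by 0.27 (SE 0.04, limma adjusted p = 0.00206), but stood at 0.10 (adjusted p = 0.0908) with the length trend removed.

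Tet1 (chromosome 10, 62804570 to 62908996, minus strand), the TET enzyme best known from embryonic stem cells, was the lowest of the 10 genes. It stood at 0.93, 1 and 0.87 FPKM in MHCII-hi and at 0.61, 0.51 and 0.52 FPKM in MHCII-lo. It was not tested in the fit with a minimum of 1 FPKM, and with no minimum its change of 0.32 had a limma adjusted p of 0.0186. That scale understates so low a gene: the ratio of means was 1.71-fold, above that of Tet2, and the change was 0.68 with a pseudocount of 0.1. Tet3 and Tet2 had near-equal levels in MHCII-lo, with a Tet3 to Tet2 ratio of 1.06, 0.992 and 0.979, and Tet3 was the lower of the pair in MHCII-hi, at 0.819, 0.770 and 0.757. That ratio did not overlap between groups (log2 difference -0.37, exact permutation p = 0.1), and the exons of both genes sum to a like length, 16695 bases in Tet3 and 16870 in Tet2. The Dnmt3a to Tet2 ratio, which sets a methylation writer against an eraser, was 0.484 ± 0.0129 in MHCII-hi against 0.631 ± 0.0382 in MHCII-lo (SD, n = 3; exact permutation p = 0.1), again without overlap. The ratio of Tet1 to Tet2 overlapped between the groups (0.152 ± 0.0110 against 0.145 ± 0.0216, SD, n = 3; exact permutation p = 0.7).

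The histone regulators separated into a pair that rose and a pair that did not pass. Kmt2a (chromosome 9, 44803355 to 44881296, minus strand), the methyltransferase that places methyl groups on lysine 4 of histone H3, had the largest change of the set, also as a ratio of means. It stood at 7.06, 7.64 and 6.95 FPKM in MHCII-hi and at 3.51, 3.47 and 3.45 FPKM in MHCII-lo. The lowest MHCII-hi value was well above the highest MHCII-lo value. Kmt2a rose by 0.88 (SE 0.05, limma adjusted p = 1.08e-05), a 2.08-fold ratio of means, and 99.6% of genes in its length class changed by less. The change was 0.71 (adjusted p = 3.12e-05) with the length trend removed. Its ratio to Kmt2d, another long gene of the family, came to 0.873, 0.971 and 0.851 in MHCII-hi against 0.731, 0.666 and 0.641 in MHCII-lo, with no overlap (exact permutation p = 0.1).

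Asxl1 (chromosome 2, 153345829 to 153404007, plus strand), a partner of the deubiquitinase Bap1 that removes the Polycomb mark from histone H2A, stood at 22.5, 23.2 and 20.9 FPKM in MHCII-hi and at 16.9, 16.8 and 16.6 FPKM in MHCII-lo. The 3 MHCII-hi values spread more widely but all lay above MHCII-lo. Asxl1 rose by 0.38 (SE 0.04, limma adjusted p = 0.000281), a 1.32-fold ratio of means, and by 0.35 (adjusted p = 0.000573) with the length trend removed. Its ratio to its paralogue Asxl2 was 4.35 ± 0.133 in MHCII-hi against 4.29 ± 0.256 in MHCII-lo (SD, n = 3; exact permutation p = 0.7), and these overlapped. Exons sum to 7444 bases in Asxl1 and 15941 in Asxl2, and Asxl2 changed by 0.15 with the length trend removed.

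Ezh2 (chromosome 6, 47530139 to 47595341, minus strand), the enzyme of Polycomb repressive complex 2 that methylates lysine 27 of histone H3, stood at 20.4, 20.5 and 19.9 FPKM in MHCII-hi and at 19.6, 18.9 and 18.9 FPKM in MHCII-lo. The groups did not overlap but lay close. The change of 0.08 (95% interval 0.01 to 0.15) had a limma adjusted p of 0.0647, which became 0.0383 under quantile normalization and 0.000451, at a change of 0.25, when scaled without immunoglobulin genes. Within libraries, Ezh2 stood at 3.94, 4.37 and 4.17 times its paralogue Ezh1 in MHCII-hi and at 5.54, 4.96 and 5.2 times in MHCII-lo (exact permutation p = 0.1). Ezh1 itself rose by 0.33 (limma adjusted p = 0.00165), from 3.66 ± 0.137 to 4.88 ± 0.259 FPKM (SD, n = 3). Ezh2 is known to be high in dividing cells, and its ratio to the proliferation marker Mki67 was 0.241 ± 0.00265 in MHCII-hi against 0.25 ± 0.00342 in MHCII-lo (SD, n = 3; exact permutation p = 0.1). Exons sum to 6678 bases in Ezh2 and 10061 in Mki67, and with the length trend removed both changed by 0.06.

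Bmi1 (chromosome 2, 18677018 to 18686629, plus strand), a RING finger subunit of Polycomb repressive complex 1 that holds the Cdkn2a locus silent in HSCs, had, as deposited, a lower value in every MHCII-hi library than in any MHCII-lo library, unlike the other 9 genes. It stood at 10.1, 10.1 and 10.4 FPKM in MHCII-hi and at 10.6, 10.8 and 10.9 FPKM in MHCII-lo. The change of -0.07 (95% interval -0.15 to 0.01, limma adjusted p = 0.0966) did not pass as deposited, whereas it was -0.09 (adjusted p = 0.0435) under quantile normalization and turned to 0.09 (adjusted p = 0.0444) when scaled without immunoglobulin genes. Its ratio to the paralogue Pcgf2 came to 8.53, 8.84 and 13.6 in MHCII-hi against 15.4, 20.7 and 15.3 in MHCII-lo, without overlap (exact permutation p = 0.1), but Pcgf2 lay between 0.52 and 1.18 FPKM in all libraries, and MHCII-hi replicate 3 stood apart from the others of its group.

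**Figure D3:**
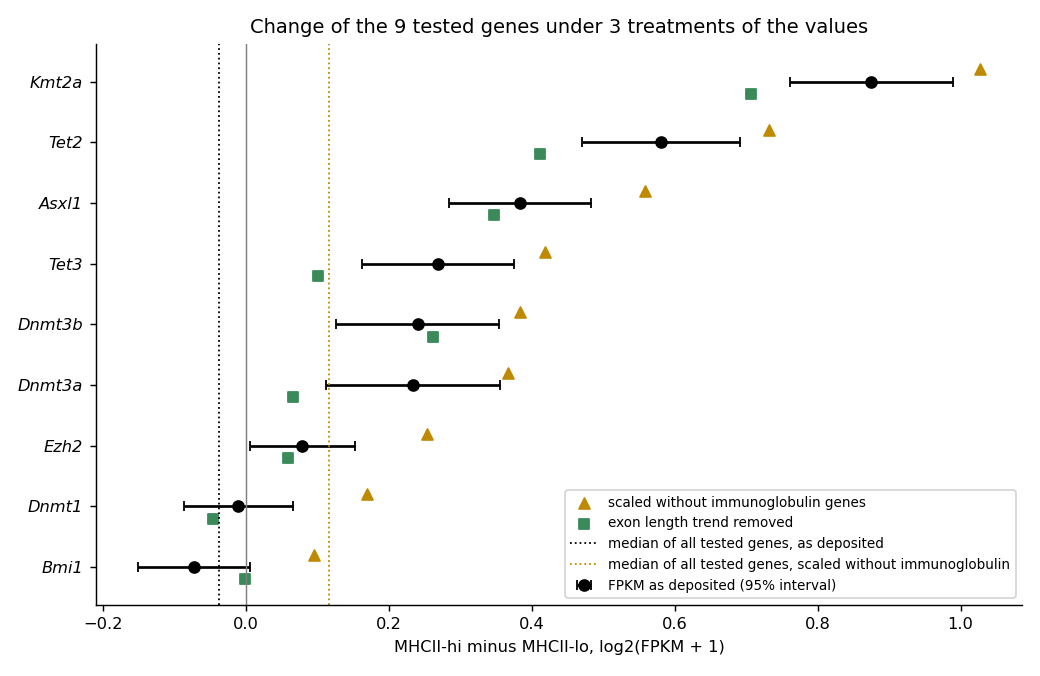
Change of the 9 tested genes (MHCII-hi minus MHCII-lo, log2(FPKM + 1), horizontal axis) as deposited with 95% intervals (black), scaled without immunoglobulin genes (triangles) and with the exon length trend removed (squares); dotted lines are medians of all tested genes. Kmt2a, Tet2, Asxl1, Dnmt3b, Dnmt3a, Tet3 and Ezh2 lie to the right of 0 in each, and Bmi1 and Dnmt1 cross 0 with scaling.

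The order of levels, which FPKM allows because it is per length, changed in places. In MHCII-lo it ran from Dnmt1 at 43.6 FPKM through Ezh2 at 19.1, Asxl1 at 16.8, Bmi1 at 10.8, Tet3 at 3.81, Tet2 at 3.78, Kmt2a at 3.48, Dnmt3b at 3.18 and Dnmt3a at 2.38 to Tet1 at 0.547 FPKM. Tet3 and Tet2 were the only neighbours there whose libraries overlapped. In MHCII-hi no neighbours overlapped, Asxl1 at 22.2 FPKM stood above Ezh2 at 20.3, and Kmt2a at 7.22 and Tet2 at 6.14 stood above Tet3 at 4.8 FPKM. Antisense transcripts share exon bases with Kmt2a (378), Asxl1 (197), Ezh2 (174), Dnmt3a (133) and Tet2 (43) in the annotation, and whether counting used the strand is not given in the sources used here.

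**Figure D4:**
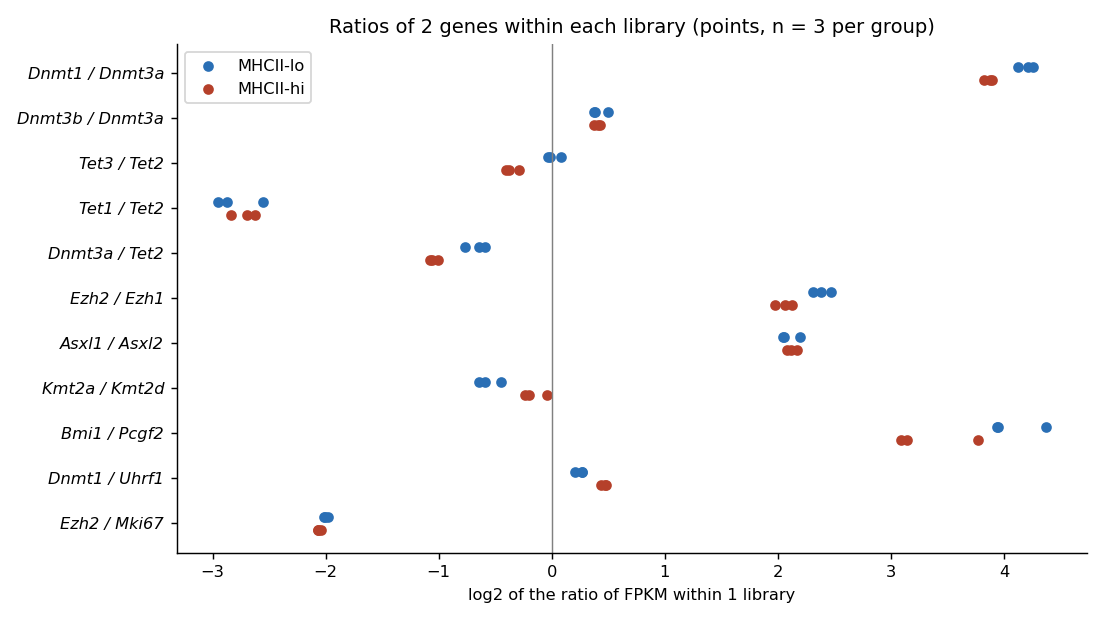
Log2 ratio of FPKM of 2 genes within each library (horizontal axis) for 11 pairs; each point is a library, blue for MHCII-lo and red for MHCII-hi. The Dnmt1 to Dnmt3a, Tet3 to Tet2, Dnmt3a to Tet2 and Ezh2 to Ezh1 ratios are lower in all 3 MHCII-hi libraries and the Kmt2a to Kmt2d ratio is higher, while the Dnmt3b to Dnmt3a, Tet1 to Tet2 and Asxl1 to Asxl2 ratios overlap.

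Of 158 tested genes in 10 lists of partners, paralogues, opposing enzymes, targets and cycling genes, 57 rose (36.1%), 54 fell (34.2%) and 47 did not pass, with a median change of 0.00, beside 25.5% and 33.1% of all tested genes. The share that fell was near that of all tested genes. By list, the share called ranged from 56.5% (MLL and COMPASS) to 88.9% (demethylation and cofactors), beside 58.6% of all tested genes. It was 75% for Polycomb repressive complex 2 and for targets, 78.6% for histone demethylases and 88% for cell cycle genes. When scaled without immunoglobulin genes 81 rose and 21 fell, at a median of 0.16, so the direction of the smaller changes below depends on scaling.

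The MLL and COMPASS list holds subunits of the complexes that methylate lysine 4 of histone H3, and also Dot1l, which methylates lysine 79, and fusion partners of Kmt2a from elongation or Dot1l complexes (Aff1, Aff4, Mllt1, Mllt3 and Mllt10). Of 23 tested genes 9 were higher, 4 lower and 10 not passing (median 0.09), and the share called, 56.5%, was near the 58.6% of all tested genes. Of the 9 that were higher, 4 (Aff1, Aff4, Dot1l and Mllt3) were not subunits of those complexes. The enzymes Kmt2c and Kmt2b and the elongation factor Aff4 were among those that rose. Kmt2c stood at 6.09 ± 0.0361 against 3.72 ± 0.178 FPKM and Kmt2b at 10.2 ± 0.119 against 7.08 ± 0.105 FPKM (SD, n = 3). Aff4 stood at 11.7 ± 0.227 against 7.08 ± 0.244 FPKM. Kmt2d rose by 0.56. The core subunit Dpy30 fell from 40.5 ± 2.73 in MHCII-lo to 27.2 ± 1.05 FPKM in MHCII-hi, Hcfc2 fell by 0.33, and Wdr5 fell by 0.27 as deposited but did not pass when scaled without immunoglobulin genes. With that scaling 15 of the list rose and 2 fell, where 40.9% and 17.2% of all tested genes did, and with the length trend removed 12 rose and 5 fell, where 27.6% and 28.1% did.

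Among histone demethylases, 10 of 14 rose, 1 fell and 3 did not pass (median 0.21), and 13 rose when scaled without immunoglobulin genes. The median exon length of the list was 8304 bases, and with the length trend removed 8 rose and 1 fell. With 1 library left out 7 to 9 rose, and 8 rose with the replicate block. Kdm6b (JMJD3), which removes the mark that Ezh2 places, stood at 19.0 ± 0.453 against 8.22 ± 0.366 FPKM (SD, n = 3; change 1.12, limma adjusted p = 1.52e-06). Kdm3a rose by 0.50 and Kdm5a by 0.30. Kdm7a was the 1 that fell, to 21.7 ± 0.218 from 27.3 ± 0.110 FPKM.

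Polycomb repressive complex 2 moved both ways, with 4 of its genes higher, 5 lower and 3 not passing of 12 tested besides Ezh2 (median -0.04). Those higher were Ezh1, which takes the place of Ezh2 in the complex, and the accessory subunits Phf1 (change 0.38), Lcor (0.27) and Jarid2 (0.12). The core subunits Suz12 (47.6 ± 0.866 in MHCII-lo, 39.9 ± 1.38 FPKM in MHCII-hi; SD, n = 3) and Rbbp7 (74.2 ± 0.355 and 62.9 ± 1.47 FPKM) fell with Mtf2. When scaled without immunoglobulin genes none of the 5 passed as lower. With the length trend removed 3 rose and 6 fell, where 27.6% and 28.1% of all genes did. Suz12 (change -0.22), Rbbp7 (-0.13) and Mtf2 (-0.23) were among the 6. Only 2 partners rose without MHCII-hi replicate 2, MHCII-lo replicate 1 or MHCII-lo replicate 2, with Lcor and Jarid2 lost in each. Jarid2 also did not pass without MHCII-hi replicate 1 or MHCII-lo replicate 3, with the replicate block (adjusted p = 0.057) or with the length trend removed (change 0.05, adjusted p = 0.327).

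In the list for Polycomb repressive complex 1, which holds partners of Bmi1 and also its paralogues and subunits of variant complexes without it, 8 of 20 genes rose, 4 fell and 8 did not pass (median 0.14). The share called, 60%, was near the 58.6% of all tested genes. Kdm2b, Bcor and Bcorl1, of the variant complexes, were among the 8. Cbx7, a chromobox reader of the Polycomb mark known to hold HSCs in self-renewal, stood at 3.83 ± 0.191 in MHCII-hi against 1.29 ± 0.231 FPKM in MHCII-lo (SD, n = 3; change 1.08, limma adjusted p = 6.9e-05). Phc1 rose by 0.32 and the catalytic subunit Rnf2 by 0.18. Yaf2 fell from 19.3 ± 0.221 in MHCII-lo to 14.2 ± 0.605 FPKM in MHCII-hi, and Pcgf5 and Pcgf6, which take the place of Bmi1 in variant complexes, fell as deposited but did not pass when scaled without immunoglobulin genes. The number that rose dropped to 4 without MHCII-hi replicate 3 or MHCII-lo replicate 3, and was 5 with the length trend removed.

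Of 9 tested genes in the list for the PR-DUB complex, the complex of Asxl1 or its paralogue Asxl2 with Bap1, 5 rose, 1 fell and 3 did not pass (median 0.12). The share called was 66.7%, beside 58.6% of all tested genes. Mbd6 rose by 0.26, Hcfc1 by 0.18, the sugar transferase Ogt by 0.28, Asxl2 by 0.31 and the deubiquitinase Bap1 by 0.12. Asxl2, with 15941 bases of exons, did not pass with the length trend removed (change 0.15, adjusted p = 0.0568). Bap1 did not pass without MHCII-hi replicate 2, MHCII-lo replicate 1 or MHCII-lo replicate 2, or with the replicate block (adjusted p = 0.0514). Foxk2, the 1 that fell (change -0.15, limma adjusted p = 0.0441), did not pass without any single MHCII-hi library, MHCII-lo replicate 2 or MHCII-lo replicate 3, with the replicate block (0.0953) or with the other scaling.

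Of 12 tested genes of the DNA methylation machinery 4 were higher, 3 lower and 5 not passing (median 0.02), and the share called, 58.3%, was that of tested genes in general (58.6%). Uhrf1, which guides Dnmt1 to newly copied DNA, stood at 31.4 ± 0.925 in MHCII-hi against 36.7 ± 0.165 FPKM in MHCII-lo (SD, n = 3; change -0.22, limma adjusted p = 0.000811). Per Uhrf1, Dnmt1 was at 1.38 ± 0.0222 in MHCII-hi against 1.19 ± 0.0282 in MHCII-lo (SD, n = 3; exact permutation p = 0.1). Exons sum to 7377 bases in Dnmt1 and 4259 in Uhrf1. With the length trend removed the 2 genes changed by -0.05 and -0.16, so this ratio too holds a part that follows length. The chromatin remodeller Hells, which aids methylation, fell by 0.53, and the methyl-CpG reader Mbd2 fell by 0.28. Uhrf2 rose by 0.28, and the methyl-CpG reader Mbd1 rose by 0.20. When scaled without immunoglobulin genes 7 rose and 1 fell, and Uhrf1 and Mbd2 did not pass.

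Of the demethylation genes and cofactors, 2 rose, 6 fell and 1 did not pass (median -0.24). Idh1, whose product is the cosubstrate of TET enzymes, stood at 27.4 ± 2.40 in MHCII-hi against 45.1 ± 0.915 FPKM in MHCII-lo (SD, n = 3; change -0.70, limma adjusted p = 9.86e-05). Tdg, the glycosylase that excises the oxidised bases TET enzymes make, fell by 0.33. The stress-induced gene Gadd45b rose from 12.4 ± 0.230 to 21.2 ± 1.07 FPKM, and Cxxc5 rose by 0.40, while Gadd45a fell by 0.19 as deposited and did not pass with the other scaling. Only 2 genes of this list fell when scaled without immunoglobulin genes, and likewise 2 with the length trend removed.

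Targets of Kmt2a and Polycomb were mostly scarce, with 7 of 11 below the minimum of 1 FPKM. Cdkn2a, the cell cycle inhibitor that Bmi1 silences, lay between 0 and 0.13 FPKM, and Cdkn2b was listed at 0 in 5 of 6 libraries. Meis1, a Kmt2a target and HSC transcription factor, stood at 2.33, 2.56 and 2.56 FPKM in MHCII-hi and at 1.39, 1.10 and 1.30 FPKM in MHCII-lo (change 0.62, limma adjusted p = 0.000493). Hoxa9, another Kmt2a target, moved the other way, at 1.55, 1.71 and 1.97 FPKM in MHCII-hi and 2.39, 2.54 and 2.81 FPKM in MHCII-lo (change -0.39, limma adjusted p = 0.00656). The direction of both held with scaling and with the length trend removed. Hoxa7 was just inside the threshold (limma adjusted p = 0.0487) and did not pass without any single library or with the replicate block (0.0821).

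Other genes mutated in clonal haematopoiesis moved both ways, with 12 higher, 8 lower and 10 not passing of 30 tested (median 0.02). Of these 30, 66.7% were called, beside 58.6% of all tested genes. The kinase gene Jak2 stood at 32.7 ± 0.554 in MHCII-hi against 21.1 ± 0.587 FPKM in MHCII-lo (SD, n = 3; change 0.61, limma adjusted p = 7.93e-06), Cux1 rose by 0.56 and Gnas by 0.31. The nucleolar gene Npm1 stood at 292 ± 2.87 against 387 ± 4.43 FPKM and Calr, a chaperone of the endoplasmic reticulum, at 422 ± 10.3 against 550.1 ± 6.03 FPKM, both lower in MHCII-hi.

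Cell cycle genes were mostly lower in MHCII-hi, with 21 of 25 called so, 1 higher and 3 not passing (median -0.24). Pcna stood at 139 ± 2.65 against 177 ± 3.37 FPKM, Ccna2 fell by 0.43 and Ccne2 by 0.75, while Mki67, at 84.3 ± 1.47 against 76.7 ± 0.616 FPKM (SD, n = 3), was the 1 that rose. When scaled without immunoglobulin genes 9 fell and 3 rose, and with the length trend removed 13 fell and 0 rose, so Mki67, a gene with 10061 bases of exons, did not pass there (adjusted p = 0.0811). Dnmt1 and Ezh2, which are known to follow the cell cycle, stood near 0 change as deposited beside a list whose median was -0.24. Scaled without immunoglobulin genes, they changed by 0.17 and 0.25 and the list median was -0.065. With the length trend removed, they changed by -0.05 and 0.06 and the median was -0.14.

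**Figure D5:**
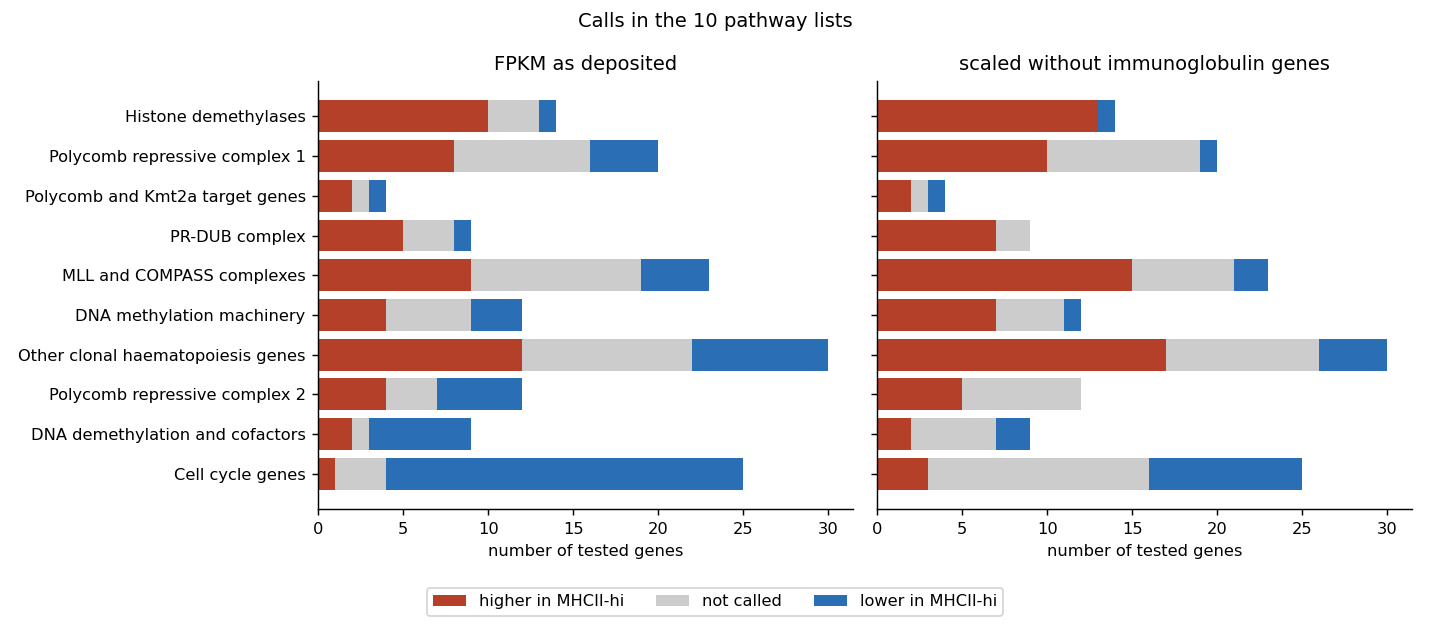
Number of tested genes (horizontal axis) called higher (red), not called (grey) or lower (blue) in MHCII-hi for each of the 10 lists, with FPKM as deposited (left) and scaled without immunoglobulin genes (right). Histone demethylases are mostly higher in both panels, and the blue part of the cell cycle bar shrinks from 21 to 9.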

How the data were processed

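Per the labels' protocols, sorted cells gave RNA by RNeasy Micro and libraries by TruSeq Stranded mRNA. Tools in the submitters' processing notes are fastp, HISAT2 and StringTie, with GRCm38 (mm10) as build; their versions and settings were not given in the sources used here. Each library has its own deposited table of values by gene symbol, taken as FPKM from the values because the headers state no unit.

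Of 30803 rows, 70 that repeated a symbol were dropped, keeping the row with the highest mean. The test was limma 3.58.1 (R 4.3.3), two-sided, without covariates and with a trend on mean level, on log2(FPKM + 1) of all genes whose mean reached 1 FPKM, Benjamini-Hochberg over all tested genes at 0.05. The code was tested on simulated data. Ratios within libraries used an exact permutation test over 20 arrangements. Positions and summed exon lengths come from GENCODE M21 (GRCm38), which matched 98.1% of tested genes. Named list genes are up to 3 per direction with the smallest p, and the second gene of each ratio; Jarid2, Bap1, Cdkn2a, Cdkn2b, and the list members given only by their role, were named after their values were seen, and a few list genes picked this way are left out of the text. The members, lists and alternatives were chosen with earlier results of these data known. Asxl3 was listed but not used here, since no symbol matched.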

Additional observations from a re-analysis of the deposited data

How the results depend on the processing

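The 6 genes called higher numbered 6 with each library left out in turn and 6 with the replicate block, where 2856 genes in all were higher and 3782 lower. Same-numbered libraries did not deviate together (r = -0.07, 0.07 and -0.02 over 4667 genes) and share only a number. Among lists the block changed the counts by over 1.5 times for PR-DUB genes that fell (0) and for Polycomb and Kmt2a targets that rose (1). Scaling without immunoglobulin genes gave 4958 higher and 2079 lower genes in all, and 21 list genes that fell in place of 54. A minimum of 5 FPKM left 1792 higher genes and 2 higher members, because fewer genes were tested. Quantile normalization called 1 member lower (Bmi1). With the length trend removed 4 members were called higher, beside 3282 higher and 3337 lower of 11875 genes. Leaving out 1 library gave 2716 to 2922 higher and 3583 to 3693 lower genes. Dnmt1 turned to 0.011 without MHCII-hi replicate 2 (the lowest value, -0.034, came without MHCII-hi replicate 1), 0.001 with upper-quartile scaling and 0.169 without immunoglobulin genes, and Bmi1 to 0.095 with the last. The Dnmt3b to Dnmt3a log2 ratio (-0.013) ranged from -0.036 to 0.025 with 1 library left out, and was 0.001 without MHCII-hi replicate 3 and 0.025 without MHCII-lo replicate 2. The Tet1 to Tet2 log2 ratio (0.072) ranged from -0.007 without MHCII-lo replicate 2 to 0.19, and was -0.01 with a pseudocount of 0.1. The Asxl1 to Asxl2 log2 ratio (0.022) ranged from -0.006 without MHCII-lo replicate 1 to 0.071, and was 0 without MHCII-hi replicate 1. For the reversed values the cause was not tested. Of 634 alternative values in all, 565 were held to be the same. For counts this meant within 1.5 times the main count. For changes and ratios it meant the same direction and side of the threshold, or a value within the spread. Depth limits genes below 1 FPKM, and the long ones least. Tet1, with 15457 bases of exons, had an estimated 193 to 466 fragments per library, and the minimum of 1 FPKM kept it out of the main test.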
